A study of Mus musculus with 19 samples.

Results

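The 33 genes described here are widely used markers of astrocytes, oligodendrocytes and microglia, 11 for each of the 3 glial classes. They were taken by symbol from a list, not by their levels, and each matched a single gene among the 39017 genes of the tables. That list and the further gene lists below were chosen with earlier results of these data known. The astrocyte markers are Gfap, Aqp4, Aldh1l1, Slc1a3, Slc1a2, Gja1, S100b, Gjb6, Slc7a10, Fgfr3 and Vim. The oligodendrocyte markers are Mbp, Mog, Mag, Mobp, Cnp, Cldn11, Mal, Opalin, Ermn, Ugt8a and Aspa. The microglia markers are Cx3cr1, P2ry12, C1qa, C1qb, C1qc, Csf1r, Tmem119, Aif1, Ctss, Trem2 and Tyrobp.

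The libraries come from the striatum of female mice and hold mRNA recovered by translating ribosome affinity purification (TRAP), in which a ribosomal protein with a green fluorescent tag is pulled down together with the mRNA on its ribosomes. The mice carried Drd1::EGFP-L10a, which tags ribosomes of D1 spiny projection neurons, or Drd2::EGFP-L10a, which tags those of D2 spiny projection neurons, on a background that the labels write as C56BL/6J. There were 4 libraries in each of 4 groups, D1 and D2 at 42 days (young D1 and young D2) and D1 and D2 at 2 years (old D1 and old D2), and every mouse carried a tag. The Drd2 gene is also active in cholinergic interneurons. Libraries of whole striatum are not analysed here, so the values are levels in the pulldown and not enrichment or depletion, and replicate numbers only name a library.

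Astrocytes clear glutamate and potassium around synapses, oligodendrocytes wrap axons in myelin, and microglia are the resident immune cells of the brain. Neither tag is directed at them. Their transcripts reach a pulldown when RNA or ribosomes of other cells adhere to the beads, and some of these genes are also transcribed at low levels in neurons. In bulk libraries such as these, fewer cells of a type and less RNA per cell cannot be told apart. Which of these sources gave the reads was not tested.

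Between 27484038 and 70903004 fragments were assigned to genes per library. Libraries of old D1 held at least 1 count for 10364 to 13694 genes and the other 12 libraries for 12770 to 14992, so 3 of the 4 old D1 libraries lie below all others and replicate 3 (13694) lies within their range. The tagged types checked against their receptors: Drd1 was at 250 to 320 TPM (a level scaled by gene length and by the library's total) in young D1 and 5.11 to 11.3 in young D2, and Drd2 at 1.55 to 37.5 and 2602 to 3668. At 2 years Drd1 was at 320 to 610 in D1 and 53.4 to 91.8 in D2, and Drd2 at 2.14 to 48.5 and 2395 to 5717.

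The 3 sets of 11 markers stood at very different levels. Summed over its 11 genes, the oligodendrocyte class ran from 85.5 to 483 TPM over the 16 libraries (median 211), the astrocyte class from 14.7 to 196 (median 75.5) and the microglia class from 0.49 to 41.8 (median 8.45). This order holds for these genes only. The 25 further astrocyte genes described below summed to 483.5 to 1580 TPM (median 1059), and 20 further oligodendrocyte genes to 120 to 420 (median 233). For 24 further microglia genes the sum was 33.4 to 176 TPM (median 67.65). In old D1 replicate 4 the gene Lpl alone held 141.45 of the 176 TPM, while the 11 microglia markers summed to 0.88 TPM. Lpl averaged 23.9 TPM in young D1, 18.77 in young D2, 80.63 in old D1 and 22.84 in old D2. The whole list averaged 59.85, 54.55, 110.4 and 75.89 TPM in the same order, so its sum depends much on Lpl. The 33 markers together made up 0.0164 to 0.0525% of the TPM of a library, which does not measure all glial RNA. A list of 16 spiny projection neuron genes summed to 11590 to 23380 TPM, and a list of 10 genes common to most neurons to 9994 to 27580. The sum of the 33 markers was 0.925 to 3.54% of the first neuronal list, with a median of 1.72%. It was 0.606 to 4.15% of the sum of the second, with a median of 1.98%. In that second list Snap25 alone averaged from 9808 TPM (young D1) to 22880 TPM (old D1), so the second ratio is mostly a ratio to Snap25.

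**Figure D1:**
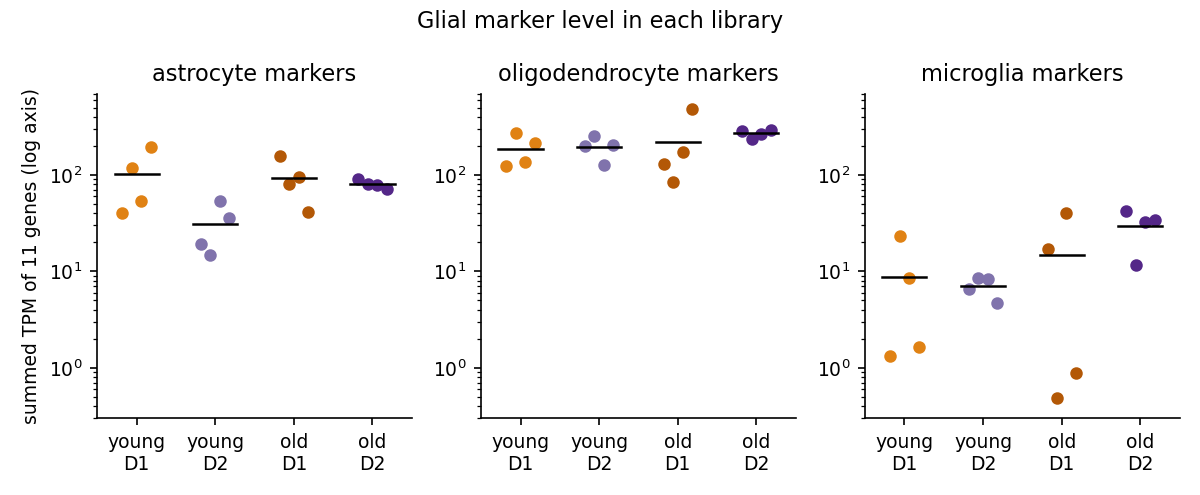
Summed TPM of the 11 markers of each class (log axis) in every library; points are libraries and lines are group means of 4. Oligodendrocyte markers lie highest in 15 of 16 libraries (old D1 replicate 1 holds 131 TPM beside 156 TPM of astrocyte markers), microglia markers run from 0.49 to 41.8 TPM, and the 4 old D2 libraries lie close together for the astrocyte class (71.6 to 90.8 TPM).

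Levels within a class were uneven across libraries. Of the 176 combinations of a microglia marker and a library, 98 (55.7%) held no count, against 36 of 176 (20.5%) for astrocytes and 18 of 176 (10.2%) for oligodendrocytes. The 16 spiny projection neuron genes had no count in 1 of 256 such combinations (0.391%). For the median microglia marker, C1qa left out, the highest library alone held 37.2% of the TPM summed over all 16. The value was 35.6% for the median astrocyte marker and 19.7% for the median oligodendrocyte marker. It was 12.7% for the spiny projection neuron list and 16.6% for all 13926 genes that passed the count filter. The neuronal genes were more abundant, with a median level of 818 TPM against 3.40, 4.56 and 0.887 TPM for the 3 glial classes, and the part of level in this unevenness was not tested.

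Of the 33 markers, 30 passed the count filter and were tested. Gjb6, a gap junction subunit of astrocytes, and Tmem119, a surface protein of microglia, had too few counts. C1qa, which codes for a chain of complement C1q, is listed at 0 in every library. The number of markers with at least 1 count was 25 to 29 in old D2, 18 to 27 in young D1 and 19 to 28 in young D2. In old D1 it was 17, 14, 26 and 16, so replicate 3 of that group resembles the other groups in this count and the other 3 libraries lie below all 12 libraries of those groups.

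**Figure D2:**
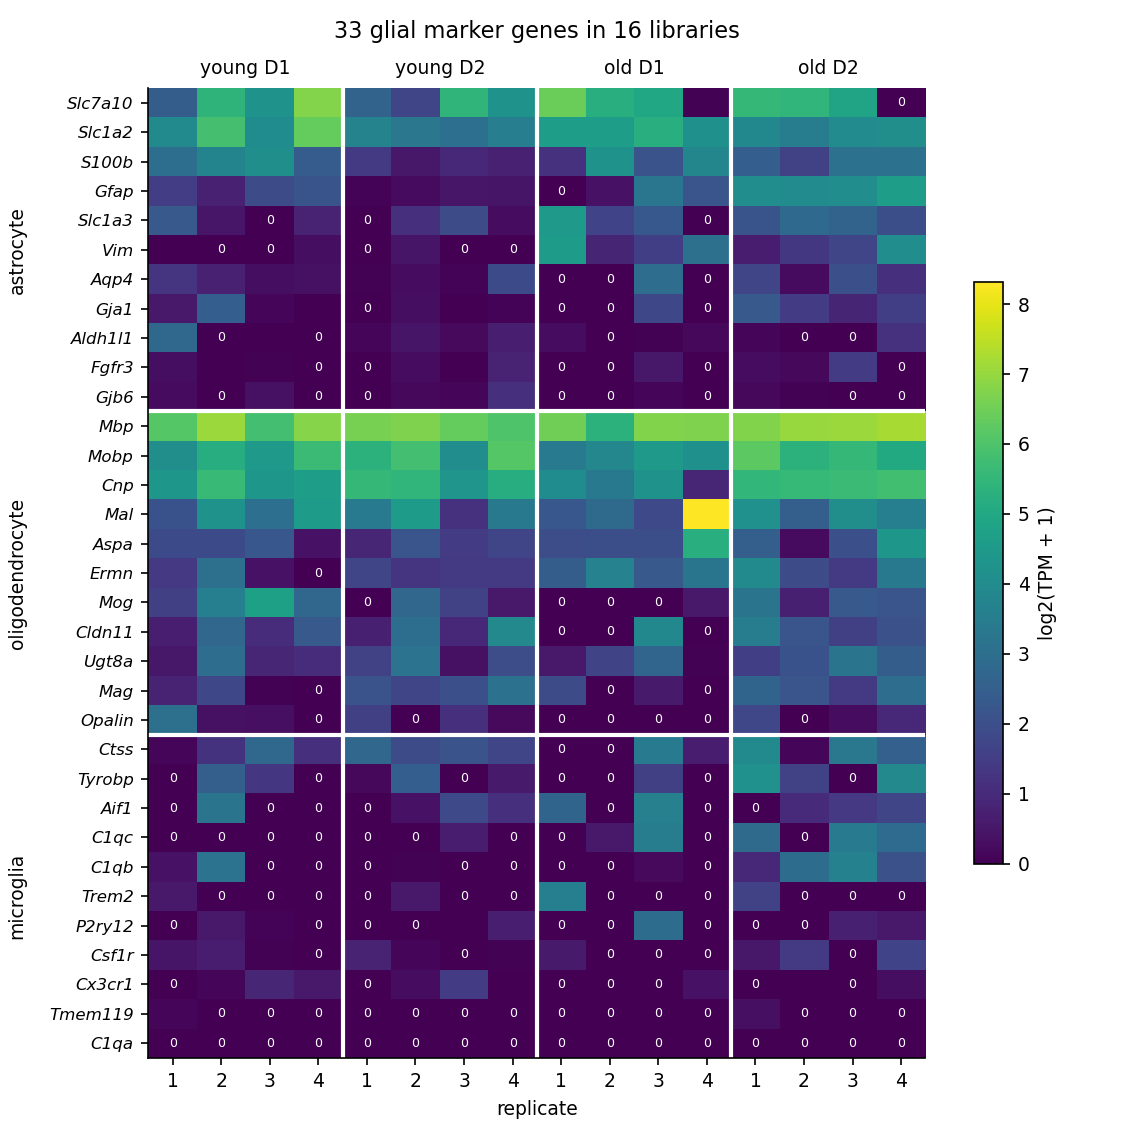
Level of each of the 33 markers as log2(TPM + 1) in each of the 16 libraries, ordered within a class by mean TPM; a 0 marks a TPM of 0. Mbp, Mobp and Slc1a2 have a signal in every library, while C1qa is listed at 0 throughout and most microglia markers appear in scattered libraries.

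Slc7a10 and Slc1a2 made up most of the astrocyte signal, 41.4 and 29.7% of the class mean. Slc7a10, a neutral amino acid transporter, was at 4.41, 41.4, 18.1 and 107 TPM in young D1, 5.30, 2.31, 42.1 and 18.3 in young D2, 85.2, 35.9, 30.8 and 0.03 in old D1 and 45.8, 43.0, 27.6 and 0 in old D2. Every group holds a library below 28 TPM, the groups overlap, and its share of the class sum ran from 0 to 78.5%. Of its TPM, 99.9% was assigned to a transcript of 516 bases that has no entry in the annotation used here, and its exons overlap those of Lrp3 on the opposite strand (0 to 73.3 TPM). Its value is therefore uncertain as an astrocyte level.

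Slc1a2 codes for GLT-1, the main glutamate transporter of astrocytes, and lies at chr2:102658659-102790784 (GRCm38). It was at 14.5, 56.8, 15.3 and 80.1 TPM in young D1, 12.2, 8.92, 7.15 and 10.8 in young D2, 24.5, 24.2, 36.2 and 17.2 in old D1 and 13.7, 10.3, 15.2 and 16.2 in old D2. At each age all 4 D1 libraries lie above all 4 D2 libraries. The 2 highest values come from short isoforms: in young D1 replicates 2 and 4 these took 35.1 and 62.6 TPM but only 502 and 537 of 5762 and 5574 counts. The longest isoform, of 11595 bases, was at 14.4 to 21.6 TPM in young D1 against 5.56 to 9.94 in young D2, and at 17.2 to 36.2 in old D1 against 10.3 to 16.2 in old D2, again without overlap.

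S100b, a calcium-binding protein of astrocytes, was at 7.05, 12.4, 16.4 and 4.34 TPM in young D1 and 1.64, 0.46, 0.91 and 0.69 in young D2. In old D1 it was at 1.28, 17.9, 3.41 and 13.2, and in old D2 at 4.63, 2.09, 7.59 and 7.65. Young D2 is the low group, below every library of young D1 and of old D2.

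Gfap, the intermediate filament of astrocytes, lies at chr11:102887336-102900912. It was at 1.83, 0.70, 2.74 and 3.51 TPM in young D1, 0.06, 0.19, 0.43 and 0.38 in young D2, 0, 0.33, 8.50 and 3.56 in old D1 and 15.9, 15.1, 15.9 and 24.4 in old D2. All 4 old D2 libraries lie above the other 12. Vim, another intermediate filament gene, which endothelial and ependymal cells also use, was at 0.02, 0, 0 and 0.24 TPM in young D1, 0, 0.39, 0 and 0 in young D2, 23.2, 0.82, 1.89 and 7.37 in old D1 and 0.60, 1.52, 2.35 and 16.03 in old D2. The 8 old libraries all lie above the 8 young ones.

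The other 6 astrocyte markers had means over 16 libraries from 0.132 TPM (Gjb6) to 3.41 TPM (the glutamate transporter Slc1a3), and each had no count in 3 to 8 libraries. The water channel Aqp4 was at 6.85 TPM in old D1 replicate 3 and at 0 in the other 3 old D1 libraries, and the connexin Gja1 at 2.48 and 0. That library also had the highest sum of a list of 18 endothelial and mural cell genes (49.5 TPM, against 2.49 to 33.2 in the other 15) and of 20 reactive astrocyte genes (62.2 TPM, against 0.14 to 18.5). Calls that change without that library are given below.

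Among oligodendrocyte markers Mbp, which codes for myelin basic protein, gave 44.8% of the class mean. It was at 67.9, 131, 55.3 and 110 TPM in young D1, 95.6, 103, 80.7 and 63.5 in young D2, 91.0, 39.7, 106 and 102 in old D1 and 105, 129, 134 and 149 in old D2. It was the most even of the markers by this measure, with 9.53% of its summed TPM in its highest library, and all 4 old D2 libraries lie above all 4 young D2 libraries.

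The Mbp gene has 2 kinds of transcript. Classical myelin basic protein is read from starts 79324 bases or more inside the gene, and the upstream start gives the golli proteins, which are also made outside myelin, some neurons included. Of 16 isoforms in the tables, 4 begin at the upstream start. These took 47.8, 30.2, 43.5 and 11.9% of the Mbp TPM in young D1, 36.6, 30.6, 36.0 and 44.5% in young D2, 30.6, 28.4, 15.6 and 13.9% in old D1 and 29.5, 27.6, 36.6 and 33.3% in old D2. The ranges of this share overlap between groups except for old D1 below young D2, where both reach 30.6% at 3 digits. Upstream transcripts were thus present in every library, at 11.3 to 49.5 TPM beside 28.4 to 99.3 TPM from downstream starts.

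**Figure D3:**
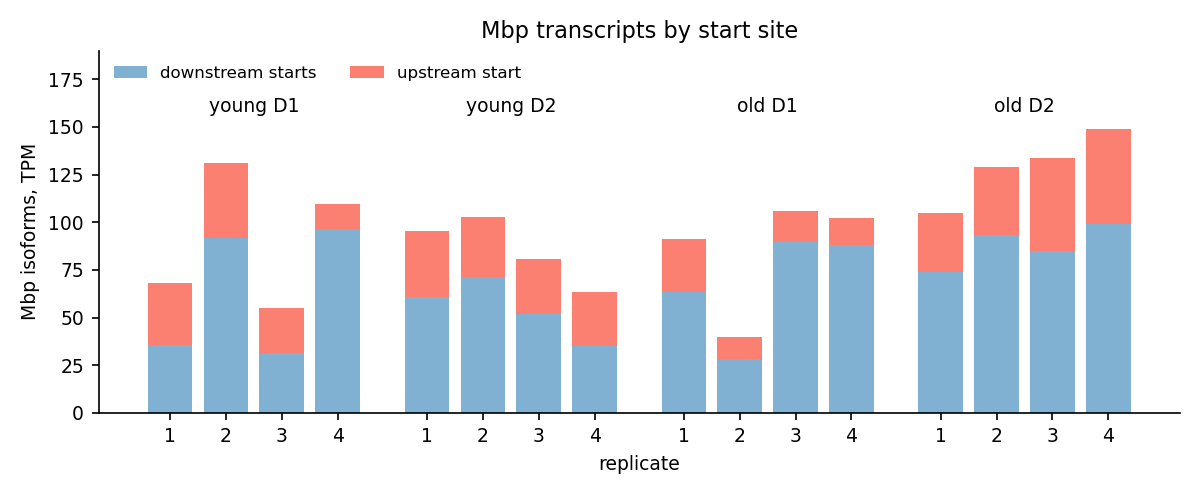
Mbp TPM per library, divided into isoforms from the upstream start (red) and from downstream starts (blue). Both kinds are present in all 16 libraries, and upstream isoforms make up 11.9 to 47.8% of the total.

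Mobp, a myelin-associated protein, was at 16.1, 35.5, 21.2 and 49.5 TPM in young D1, 39.8, 56.1, 15.7 and 67.8 in young D2, 9.68, 13.3, 21.3 and 17.1 in old D1 and 74.0, 40.0, 45.0 and 32.3 in old D2. Cnp codes for a phosphodiesterase of myelin and lies at chr11:100574904-100591729. It was at 20.04, 48.3, 19.9 and 23.7 TPM in young D1, 45.9, 43.7, 19.0 and 35.3 in young D2, 15.6, 9.31, 18.4 and 0.87 in old D1 and 44.2, 46.7, 50.3 and 54.9 in old D2. For both genes old D1 is the low group by gene total, with no overlap with old D2. In old D2 replicate 3, however, 41.8 of the 50.3 TPM of Cnp went to Cnp-204, a processed transcript not annotated as coding. The coding isoform Cnp-201 was at 6.94 TPM in that library and at 0.45 to 15.3 TPM in old D1, so its groups overlap. Exons of Cnp overlap those of Dnajc7 on the other strand, which was at 338 ± 231 TPM in old D1 and 205 ± 47.0 in old D2 (SD, n = 4), and the strand setting of the counting is not given in the sources used here.

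The other 8 oligodendrocyte markers had means from 0.921 TPM (Opalin) to 29.6 TPM (Mal). Mal, a membrane protein of myelin, was chosen for mention after its values were seen: old D1 replicate 4 held 317 TPM, and the other 15 libraries 1.26 to 22.7. Of the 317 TPM, 297 went to an isoform of 486 bases, and this value lifts the oligodendrocyte sum of that library to 483 TPM, the highest of all. Mog, a surface protein of mature myelin, was at 1.97 to 25.6 TPM in young D1, and at 0, 0, 0 and 0.47 in old D1. Opalin, also of mature oligodendrocytes, had no count in old D1 and 294, 11, 13 and 0 counts in the young D1 libraries, so replicate 1 holds most of its signal there. Old D1 libraries other than replicate 3 held counts for only 10364 to 11875 genes in all. The part of this in the low values of old D1 was not tested.

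Microglia markers were sparse throughout. The protease Ctss, the highest by mean, was at 0.07, 1.35, 6.00 and 1.17 TPM in young D1, 5.73, 2.78, 3.37 and 2.35 in young D2, 0, 0, 9.61 and 0.55 in old D1 and 14.3, 0.07, 8.97 and 4.79 in old D2. The signalling adaptor Tyrobp was at 0, 4.69, 1.51 and 0 TPM in young D1, 0.14, 4.54, 0 and 0.50 in young D2, 0, 0, 1.95 and 0 in old D1 and 17.4, 2.13, 0 and 14.2 in old D2. Both genes have empty or nearly empty libraries at each age, so their groups overlap. Aif1, which codes for the microglial protein Iba1, was at 0, 8.22, 0 and 0 TPM in young D1, 0, 0.32, 2.60 and 1.18 in young D2, 5.44, 0, 11.4 and 0 in old D1 and 0, 0.97, 1.61 and 2.32 in old D2.

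The C1q genes lie side by side on chromosome 4 and code for the 3 chains of the molecule that starts the classical complement pathway. C1qb was at 0.32, 8.06, 0 and 0 TPM in young D1, 0, 0.04, 0 and 0 in young D2, 0, 0, 0.16 and 0 in old D1 and 0.95, 6.70, 11.6 and 3.17 in old D2. C1qc was at 0 in all of young D1, 0, 0, 0.54 and 0 in young D2, 0, 0.49, 10.3 and 0 in old D1 and 6.32, 0, 9.45 and 6.53 in old D2. C1qb was detected in all 4 old D2 libraries and C1qc in 3 of them, with 586 and 565 counts in that group, while C1qa is listed at exactly 0 in all 16 libraries. Whether the authors' counting could assign reads to C1qa was not tested, so its 0 is not read as a low level and no upper limit is given. The remaining 5 microglia markers had means from 0.0225 TPM (Tmem119) to 0.887 TPM (Trem2).

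**Figure D4:**
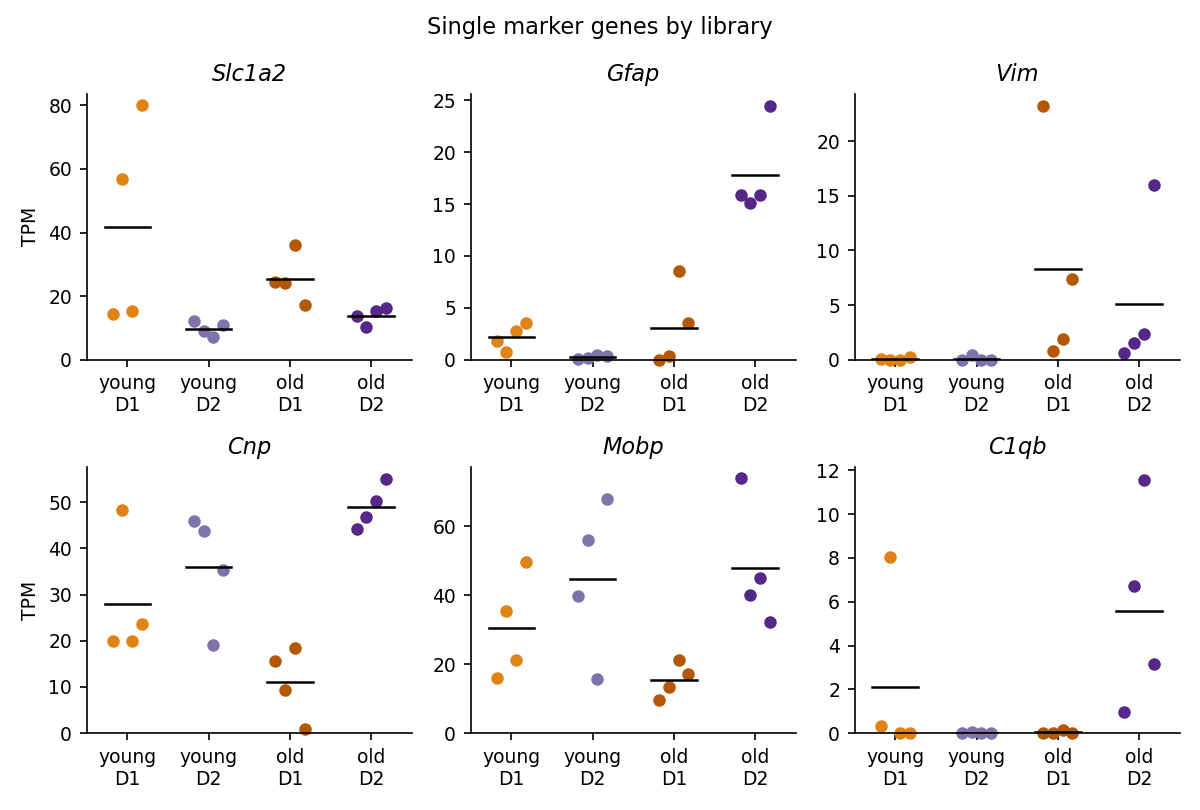
TPM of 6 markers in every library (points) with the group mean (line). Slc1a2 lies higher in D1 than in D2 at both ages, Gfap is highest in old D2, C1qb has a signal in all 4 old D2 libraries, Vim appears in the old libraries, and Cnp and Mobp are lowest in old D1.

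Whether the D1 and D2 pulldowns of young mice carry unequal amounts of glial RNA was asked first. The astrocyte class summed to 102 ± 71.6 TPM in young D1 and 30.8 ± 17.7 in young D2 (SD, n = 4), the oligodendrocyte class to 186 ± 69.5 and 197 ± 51.9, and the microglia class to 8.71 ± 10.4 and 7.02 ± 1.78. In young D1 replicate 4 the astrocyte sum was 196 TPM, of which Slc7a10 gave 107 and short Slc1a2 isoforms 62.6. All astrocyte sums given here include Slc7a10, whose value is uncertain as an astrocyte level. By edgeR's quasi-likelihood test 1 of the 30 tested markers was called (adjusted p under 0.05 over all 13926 genes), Slc1a2, against 0.409% of all genes. It was 2.46-fold higher in D1 (log2 1.30, SE 0.27, adjusted p = 0.0318, edgeR's quasi-likelihood test). S100b stood at log2 3.52 (SE 1.13, adjusted p = 0.443) and Gfap at log2 3.18 (SE 1.29, adjusted p = 0.671) in the same edgeR test, neither called. At an unadjusted p under 0.05 there were 4 of 30 markers (13.3%), beside 6.01% of all genes.

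The 4 values of a group did not overlap for 3 of the 30 markers, Gfap, Slc1a2 and S100b, each higher in D1, against 6.35% of all genes in either direction. The median change of the 10 tested astrocyte markers was log2 1.10, of the 11 oligodendrocyte markers -0.02 and of the 9 microglia markers -0.09, with 0.02 over all genes; medians here and below cover only genes that passed the filter. Without the old D1 libraries in the fit, an alternative added after seeing the data, Slc1a2 and Gfap were called (edgeR adjusted p = 0.0127 and 0.0457). The Slc1a2 call ended in fits to log2 TPM (limma adjusted p = 0.356 and 0.379), without young D1 replicate 2 (edgeR adjusted p = 0.154) or 4 (0.113), and without any 1 of the young D2 libraries (0.0657 to 0.166).

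At 2 years the class sums were 93.3 ± 47.4 TPM in D1 and 80.5 ± 7.89 in D2 for astrocytes, 219 ± 180 and 271 ± 27.3 for oligodendrocytes, and 14.6 ± 18.6 and 29.9 ± 12.9 for microglia (SD, n = 4). The oligodendrocyte mean and SD of old D1 include the 317 TPM of Mal in replicate 4. Here 2 of 30 markers were called, beside 9.60% of all genes, a share of members (6.67%) near that background. Slc1a2 was again higher in D1, 1.98-fold (log2 0.99, SE 0.27, adjusted p = 0.0257, edgeR's quasi-likelihood test). Cnp was 4.72-fold lower in D1 (log2 -2.24, SE 0.61, adjusted p = 0.0251, edgeR's quasi-likelihood test). The test used gene totals, and the coding isoform Cnp-201 overlapped between the groups.

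The groups did not overlap for 6 of 30 markers: Slc1a2 higher in old D1, and Gfap, Mog, Mobp, Cnp and C1qb lower, against 14.8% of all genes. Mobp stood at log2 -1.42 (SE 0.47, edgeR adjusted p = 0.0613), and 6 of 30 markers had an unadjusted p under 0.05, beside 25.4% of all genes. The median change was log2 0.27 for astrocyte, -1.09 for oligodendrocyte and -1.004 for microglia markers, and -0.07 over all genes. The Slc1a2 call ended without old D1 replicate 3 (edgeR adjusted p = 0.0638) or old D2 replicate 1 (0.0667), 2 (0.103) or 4 (0.0517), and the Cnp call without old D1 replicate 2 (0.0561) or old D2 replicate 3 (0.0626). With only old D1 and old D2 in the fit neither held (edgeR adjusted p = 0.0884 and 0.127), nor with a trend over GC content and length removed (0.108 and 0.0735). The Slc1a2 call also ended without TMM scaling (edgeR adjusted p = 0.0519) and on log2 TPM (limma adjusted p = 0.305 and 0.318), and that of Cnp by voom (adjusted p = 0.11). Without old D1 replicate 3, Aqp4, Cldn11 and Gja1 were called lower in D1 besides Cnp, and without old D1 replicate 4 Mog was called lower besides Cnp (edgeR adjusted p = 0.0244). Replicate 3 is the only old D1 library with counts for Aqp4 (668), Cldn11 (459) and Gja1 (145), and replicate 4 the only 1 for Mog (13). Leaving it out empties the group, so these calls of Aqp4, Cldn11, Gja1 and Mog are not read as a decrease.

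The next question was whether glial RNA in the D1 pulldown changes with age. Vim was the 1 marker of 30 called, beside 10.8% of all genes, and a member share of 3.33% lies below that background. Vim rose from 0.065 ± 0.117 to 8.32 ± 10.3 TPM (SD, n = 4), or from 5 to 678 counts over 4 libraries (log2 7.29, SE 2.27, adjusted p = 0.0442, edgeR's quasi-likelihood test). With so few young counts the size of the fitted change depends on the prior count. Groups did not overlap for 3 of 30, Vim higher and Mog and Cnp lower with age, against 13.8% of all genes.

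Including Vim, 7 of 30 markers (23.3%) had an unadjusted p under 0.05, beside 26.9% of all genes. Among those not called were Cnp at log2 -1.57 (SE 0.59, edgeR adjusted p = 0.0956), Mobp at -1.13 (SE 0.47, edgeR adjusted p = 0.127) and Mog, with 1027 counts in young and 13 in old D1 (edgeR adjusted p = 0.0869). For Opalin the edgeR adjusted p was 0.0631, and 0.18 without young D1 replicate 1. C1qc went the other way, with 0 counts in young and 227 in old D1 (edgeR adjusted p = 0.0834), 215 of them in replicate 3. C1qb had 164 counts in young and 3 in old D1 (edgeR adjusted p = 0.14). Of the 11 oligodendrocyte markers 7 had a negative and 4 a positive change. The median change was log2 0.37 for astrocyte, -0.15 for oligodendrocyte and -0.24 for microglia markers, and -0.06 over all genes. The Vim call ended without any 1 of the young D1 libraries (edgeR adjusted p = 0.0551 to 0.112) or without old D1 replicate 1 (0.0712) or 4 (0.0659), with no count filter (0.0594), with only D1 libraries in the fit (0.103) and after removal of a trend over GC content and length (0.0569). Without old D1 replicate 3, 4 markers were called, Vim higher and Aqp4, Cldn11 and Gja1 lower, and without old D1 replicate 4 Mog was called lower (edgeR adjusted p = 0.0152). Each of the markers called lower has all its old D1 counts in the library left out, so these calls are not read as a decrease.

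In D2 the glial sums were higher at 2 years: 80.5 ± 7.89 TPM against 30.8 ± 17.7 at 42 days for astrocytes, 271 ± 27.3 against 197 ± 51.9 for oligodendrocytes and 29.9 ± 12.9 against 7.02 ± 1.78 for microglia (SD, n = 4). For the astrocyte and microglia classes every old D2 library lay above every young D2 library. By edgeR's quasi-likelihood test 0 of 30 markers were called, beside 0.079% of all genes. DESeq2 called 1, Gfap. Before adjustment 5 of 30 (16.7%) had a p under 0.05 in the edgeR test, beside 5.75% of all genes: Gfap, Vim, S100b, Slc1a2 and C1qb. Some neuronal genes were higher at 2 years in D2 too. Drd1 rose in D2 from 8.31 to 67.6 TPM (edgeR adjusted p = 2.86e-05) and Tac1 from 122 to 414 TPM (0.0051). Both are higher in D1 than in D2. Tac1 also rose with age in D1, from 1617 to 4054 TPM (edgeR adjusted p = 0.00202). The difference of its age changes, D1 minus D2, was log2 -0.35 (SE 0.35, edgeR adjusted p = 0.6865). Pdyn, also higher in D1, was at 2.522 TPM in young D2 and 4.385 in old D2, not called. Of the 16 spiny projection neuron genes Drd1 and Tac1 were called higher and 0 lower, and 12 had a negative change. Whether the changes of glial markers, Drd1 and Tac1 share a source was not tested.

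The 4 values of each age did not overlap for 7 of 30 markers (23.3%), Gfap, Slc1a3, Gja1, S100b, Vim, Mbp and C1qb, all higher in old D2, against 7.07% of all genes in either direction. Of the 30 markers 24 had a positive change. The median was log2 1.51 for astrocyte markers, 0.37 for oligodendrocyte markers and 1.56 for microglia markers, and 0.01 over all genes. Old D2 libraries held a count for 13838 to 14766 genes and young D2 for 13773 to 14610.

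Gfap stood at 17.8 ± 4.43 TPM in old D2 and 0.265 ± 0.171 in young D2 (SD, n = 4), with 3960 and 67 counts over the 4 libraries (log2 5.96, SE 1.46, adjusted p = 0.26, edgeR's quasi-likelihood test). Other fits gave other calls. Without the 4 old D1 libraries, where Gfap ran from 0 to 8.50 TPM, the edgeR adjusted p was 0.00303, and with only D2 libraries in the fit it was 0.00152, at log2 5.95 in both. DESeq2 gave an adjusted p = 1.75e-05, voom with library weights 0.00254 and limma on log2(TPM + 1) 0.0262, all 3 with the 16 libraries kept, and limma on log2(TPM + 0.1) gave 0.112. When 1 library was left out at a time with old D1 kept, the edgeR adjusted p was 0.457 to 0.724.

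**Figure D5:**
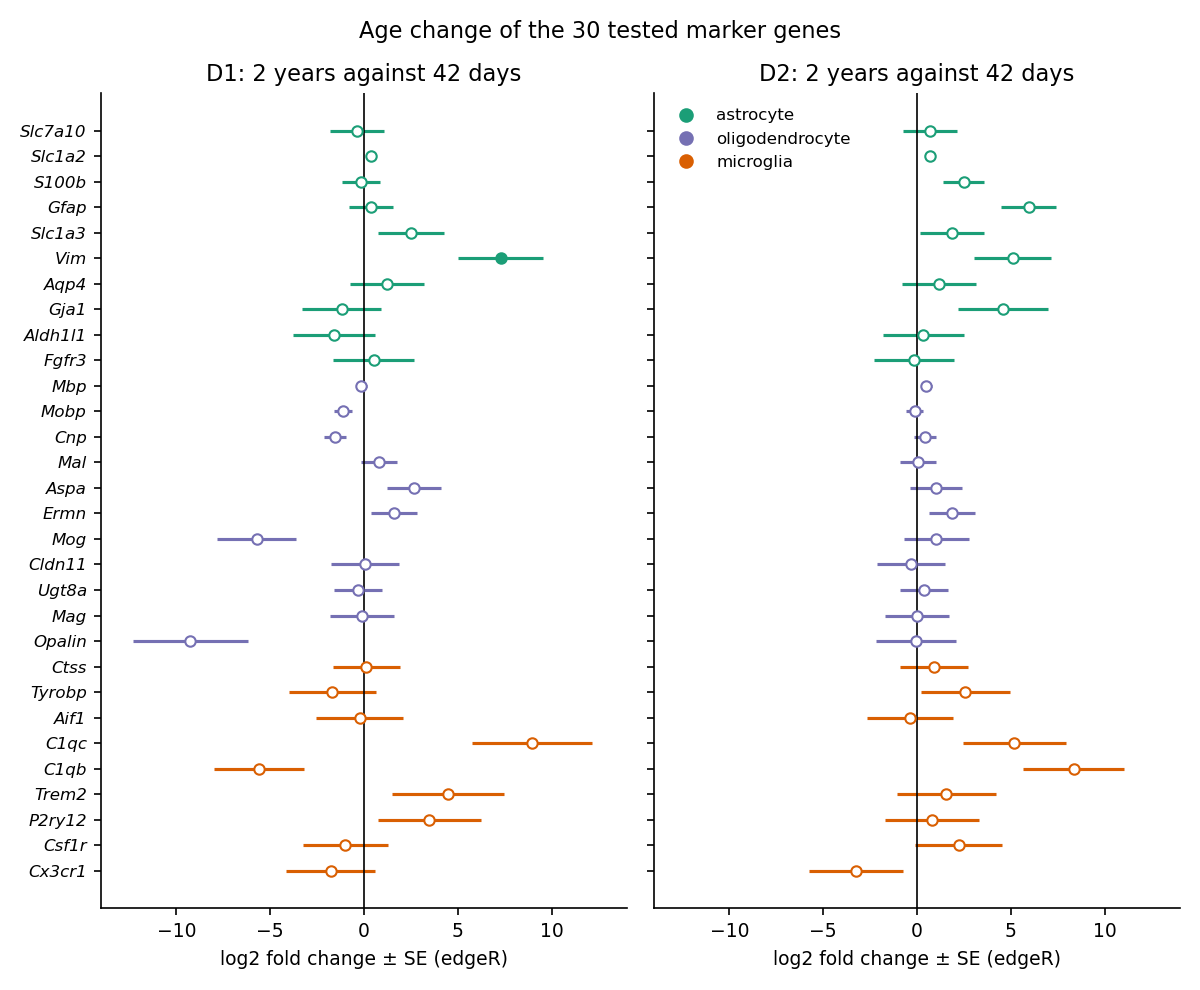
Log2 fold change from 42 days to 2 years with its SE (edgeR) for the 30 tested markers in D1 (left) and D2 (right), coloured by class; the filled point was called at an adjusted p under 0.05. In D2 24 of 30 points lie above 0, in D1 14 of 30.

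A direct test of the difference between the D1 and D2 age changes called 0 of 30 markers by edgeR's quasi-likelihood test, beside 1.77% of all genes, and DESeq2 called 2, C1qb and Gfap. Before adjustment 5 of 30 (16.7%) had a p under 0.05 in the edgeR test, beside 16.9% of all genes. Gfap had the more positive age change in D2 by log2 5.58 (SE 1.79, edgeR adjusted p = 0.107), and Cnp by 1.99 (SE 0.83, edgeR adjusted p = 0.217). For C1qb the edgeR adjusted p was 0.0525. It was 0.0408 without young D1 replicate 3 and 0.0357 without old D1 replicate 3, where Cldn11 and Gja1 passed too. Without young D1 replicate 2, which holds 157 of the 164 C1qb counts of its group, it was 0.137. Mog passed without old D1 replicate 4 (edgeR adjusted p = 0.0413). In old D1, C1qb, Cldn11 and Gja1 had counts only in replicate 3 and Mog only in replicate 4. Leaving those libraries out empties the group, so calls made that way are not read as a difference. The age change of Slc1a2 differed by log2 -0.31 (SE 0.38, edgeR adjusted p = 0.753).

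Further genes of the same cell types, listed apart from the 33, were described by their counts and medians. Of 25 further astrocyte genes, all tested, 22 were higher at 2 years in D2 (median log2 1.003), of 17 tested further oligodendrocyte genes 13 (0.84) and of 11 tested further microglia genes 7 (1.83), and edgeR called 0 in each list. In D1 the medians were 0.05, -0.67 and -0.56, with 1 gene called in the first list and 1 in the third.

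The called gene of the first list was Aldoc, a glycolytic enzyme abundant in astrocytes. It was at 25.0, 57.5, 52.5 and 29.8 TPM in young D1, 22.9, 36.1, 14.7 and 49.99 in young D2, 192, 292, 257 and 369 in old D1 and 113, 66.4, 48.4 and 48.7 in old D2, and old D1 lies above all other libraries. It rose with age in D1 (log2 2.76, edgeR adjusted p = 0.0007) and was higher in old D1 than in old D2 (edgeR adjusted p = 0.00397). Glul, the glutamine synthetase of astrocytes, was lower in old D1 than in old D2, at 37.6 against 113 TPM (log2 -1.62, edgeR adjusted p = 0.0288). These 2 astrocyte genes thus differed in opposite directions between the same groups. Lpl, a lipase of the further microglia list, rose in D1 from 23.9 to 80.6 TPM (edgeR adjusted p = 0.0149).

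Lists for other non-neuronal cells and for reactive astrocytes differ in size and gene choice, so their sums do not rank cell types. Lists of 9 oligodendrocyte precursor genes summed to 2.65 to 27.9 TPM, 18 endothelial and mural genes to 2.49 to 49.5, 12 ependymal and choroid plexus genes to 14 to 121 and 20 reactive astrocyte genes to 0.14 to 62.2. The complement gene C4b made up 54.5 of the 62.2 TPM of reactive genes in old D1 replicate 3, and it was at 0.92 to 6.22 in old D2 and 0 to 0.15 in all young libraries. No gene of these 4 lists was called in any of the 5 comparisons by edgeR's quasi-likelihood test, and only 5 or 6 genes of each were tested.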

How the data were processed

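Per the labels' protocols, ribosome-bound mRNA was purified from striatum by TRAP and libraries were made with NuGEN Ovation V2. Per the submitters' processing notes, the authors ran STAR 2.5.1b with RSEM 1.2.20 on build mm10. The sources used here do not give annotation release, read length or strandedness. Per the file headers, the authors' RSEM tables hold expected counts (estimated fragments per gene and isoform, which need not be whole), TPM, the effective length in bases, and each isoform's share of its gene in percent, which was not used. RSEM divides fragments that match several transcripts by a model, so isoform values and overlapping genes are uncertain, and the kit adds no molecular identifiers, so bounds from 3 counts cover counting error only.

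Names and positions are from GENCODE M21 (GRCm38), matched by gene ID, with 37607 of 39017 genes matched. Of 155 symbols on 9 companion lists 154 matched. The members and all lists were chosen with earlier results of these data known. Expected counts were rounded (20.0% of nonzero values were not whole), filtered with filterByExpr, scaled by TMM and fitted with edgeR's robust quasi-likelihood test (edgeR 4.0.16, R 4.3.3) to all 16 libraries, with 1 mean per group and 5 contrasts. P-values are two-sided and adjusted by Benjamini-Hochberg over 13926 genes. Alternatives used DESeq2 1.42.0, limma 3.58.1 (voom with library weights, or TPM with a pseudocount of 1 or 0.1 on the log2 scale), other scalings, filters and samples, and a removed trend over GC content and length. The edgeR script was tested on simulated data. Values in all 16 libraries are given for called markers, the 3 of highest mean TPM per class, Gfap and the C1q genes. Libraries within a group are biological replicates, per the series' design text. The 3 NIH-3T3 samples were not used here.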

Additional observations from a re-analysis of the deposited data

Results flagged for a closer look

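In groups of 4 libraries, 63 sets of marker values were checked against Dixon's 95% limit. In 14 of them, 1 library's gap to its nearest neighbour took more of the group's range than the limit allows. The limit gives about 1 in 20 for normally distributed values. Sets with most libraries at 0, such as C1qb in young D2 (0, 1, 0 and 0 counts), are not of that kind. The 14 are therefore not compared with that rate. In young D1, replicate 2 was high for Aif1 (8.22 TPM), C1qb (8.06 TPM) and Cnp (48.27 TPM), and replicate 4 for Vim (0.24 TPM). In young D2, replicate 2 was high for Tyrobp (4.54 TPM), Vim (0.39 TPM) and C1qb (0.04 TPM), and replicate 3 for C1qc (0.54 TPM). In old D1, 4 microglia markers stood out in replicate 3: C1qc (10.32 TPM), Ctss (9.61 TPM), Tyrobp (1.95 TPM) and C1qb (0.16 TPM). In old D2, replicate 4 was high for Gfap (24.43 TPM) and Vim (16.03 TPM). Tyrobp in young D2 replicate 2 and the microglia markers in old D1 replicate 3 are single libraries above neighbours at or near 0.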

How the results depend on the processing

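Markers called at 42 days (1, D1 against D2) were 2 with DESeq2, 2 by voom with library weights, 0 on log2(TPM + 1), 0 on log2(TPM + 0.1) and 2 without the 4 old D1 libraries (added after seeing the data). At 2 years (2) they were 6 with DESeq2, 0 when no other groups entered the fit, 1 by voom, 4 and 5 on log2(TPM + 1) and log2(TPM + 0.1) and 1 after removal of the trend over GC content and length. For age in D1 (1) they were 5 with DESeq2, 0 without the count filter, 0 when no other groups entered, 2 and 2 on log2(TPM + 1) and log2(TPM + 0.1) and 0 with the trend removed. For age in D2 (0) they were 1 with DESeq2, 1 when no other groups entered, 3 by voom, 1 on log2(TPM + 1) and 1 without the 4 old D1 libraries. For the difference of age changes (0) they were 2 with DESeq2 and 1 and 3 on log2(TPM + 1) and log2(TPM + 0.1). Leaving out 1 library at a time gave 0 to 1 markers at 42 days, 1 to 4 at 2 years, 0 to 4 for age in D1, 0 for age in D2 and 0 to 3 for the difference. Each refit tests fewer samples or another scale; beyond that the cause was not tested.

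Relative to the pan-neuronal list, whose own sum was 25330 ± 1572 TPM in old D1 against 12640 ± 2609 in young D1 (SD, n = 4), the log2 ratio of class means moved for astrocyte markers from -0.12 to -1.26 (age in D1) and from 0.21 to -0.57 (D1 against D2 at 2 years), and for oligodendrocyte markers from 0.23 to -0.78 and from -0.31 to -1.07. Snap25 alone averaged 9808 TPM in young D1 and 22880 in old D1. Of the 10 genes of that list, edgeR called 3 higher and 4 lower with age in D1. Relative to the spiny projection neuron list, astrocyte markers were at 0.844 ± 0.631% in young and 0.642 ± 0.374% in old D1 (SD, n = 4). Oligodendrocyte markers were at 1.53 ± 0.671% and 1.35 ± 0.914%. The other log2 ratios of class means moved by less than the replicate spread, but their sign turned in several. For astrocyte markers this was so for age in D1 on summed CPM (0.40) and when either replicate 4 of young D1 (0.41) or replicate 4 of old D1 (0.12) was dropped, and for D1 against D2 at 2 years without old D1 replicate 1 (-0.15). For oligodendrocyte markers it was so for age in D1 on summed CPM (-0.34) and without old D1 replicate 4 (-0.51), and for D1 against D2 at 42 days without young D1 replicate 1 or 3 or young D2 replicate 2 (0.04 to 0.07). For microglia markers it was so for age in D1 relative to the pan-neuronal list (-0.13) and without old D1 replicate 3 (-0.50), and for D1 against D2 at 42 days without young D1 replicate 2 (-0.88). For the 27 marker changes with an unadjusted p under 0.05, 0 of 471 refits reversed the direction. These changes were picked for lying far from 0 and the refits reuse the same libraries, so a reversal was unlikely from the start. The count is no measure of robustness. Scaling moved the median of all genes by over 0.1 in several settings, for example from -0.07 to -0.31 at 2 years on log2(TPM + 1). Setting markers with an empty group to a bound of 3 counts over that group left the class medians as given. This could not have moved them, because each such change stayed on the same side of its class median. No paired analysis was possible because the labels give groups no shared replicate numbers.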

Other observations

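Isoform assignments within some markers went to transcripts that are not annotated as coding. Vim-203, a retained-intron transcript, took 44.6% of the Vim TPM over the 16 libraries, with group means of 0.0475 TPM in young D1, 0 in young D2, 4.39 in old D1 and 1.63 in old D2. Aif1-205, also a retained-intron transcript, took 60.1% of the Aif1 TPM, and Mobp-204, annotated for nonsense-mediated decay, took 40.8% of the Mobp TPM. Cnp-204, a processed transcript, took 9.67% of the Cnp TPM, mostly from old D2 replicate 3 (41.8 TPM). In Gfap 93.9% went to the coding isoform Gfap-201. These are RSEM estimates, they were picked after the values were seen, and no test was made.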
